A study of Mus musculus with 3 samples.

Results

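The genes described here encode telomerase and the proteins that cap chromosome ends. They are *Tert* and *Dkc1* for telomerase, *Terf1*, *Terf2*, *Tinf2*, *Terf2ip*, *Acd*, *Pot1a* and *Pot1b* for shelterin, and *Rtel1* for a telomere helicase. They were chosen by symbol, and all 10 were found among the 22698 Ensembl genes of the files. RNA-seq had been performed on melan-a cells, an immortal line of mouse melanocytes, in 3 libraries that are labelled replicates 1, 3 and 4. The labels give a C57BL/6J background and melanocytes from Ink4a-ARF-/- mice, and no treatment. All 3 cultures grew in RPMI medium with 10% fetal bovine serum, 200 nM of the phorbol ester TPA and 200 pM cholera toxin. The libraries share 1 condition, so levels were compared between genes and no comparison between groups of samples exists. The series describes the replicates as biological, but no label says how the cultures were separated, so the spread between them may be partly technical.

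Telomerase adds TTAGGG repeats to chromosome ends. TERT is its reverse transcriptase, and dyskerin (DKC1) holds its RNA component. Shelterin is a complex of 6 proteins that coats the repeats. TRF1 and TRF2 bind the double-stranded part and POT1 binds the single-stranded overhang. TIN2 and TPP1 link these proteins, and RAP1 is the partner of TRF2. Mice carry a pair of *Pot1* genes. Changes in several of these genes are known from human melanoma.

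The values are FPKM, which are read numbers divided by gene length and by a library size that the authors scaled between libraries. Low values of short genes fell close to whole numbers of reads at scaled library sizes of 53900000, 46900000 and 66600000 reads in replicates 1, 3 and 4, which are estimates. All 7 melanocyte markers, *Tyr*, *Tyrp1*, *Dct*, *Pmel*, *Mlana*, *Mitf* and *Sox10*, were at or above 22.1 FPKM on average. The 4 keratinocyte markers summed to 0.36 to 0.7 FPKM per library, the 4 fibroblast markers to 1.47 to 1.83, the 2 endothelial markers to 0.01 and the 2 leukocyte markers to 0.76 to 1.6. *Krt1*, *Lum* and *Ptprc* were at 0 in every library, and most of the fibroblast sum came from *Col1a1*. *Cdkn2a*, the gene of the Ink4a-ARF locus, was listed at 19.24, 16.49 and 24.32 FPKM in replicates 1, 3 and 4. A value for the whole gene does not show which of its exons were read, and the extent of the deletion is not given in the sources used here, so this value neither bears out nor contradicts the label. The libraries also differed with the base composition of genes. Across 10007 genes of at least 1 FPKM in all 3 libraries, Spearman's rho between the GC content of the exons and the log2 ratio of replicate 4 to replicate 3 was -0.78. Genes are not independent replicates, and this value is a description of these libraries.

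Of the 10 genes, 9 were at or above 1 FPKM in all 3 libraries, against 44.1% of all genes. The exception was *Tert*. The 9 genes had mean levels from 2.13 FPKM (*Pot1b*) to 28.8 FPKM (*Acd*), with a median of 5.91 FPKM. The median over all 10011 genes past the same threshold was 11.2 FPKM. The count of 9 was the same at a threshold of 0.5 FPKM, which 47% of all genes passed. At 2 FPKM, which 39.7% of all genes passed, *Pot1b* was lost and 8 remained.

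**Figure D1:**
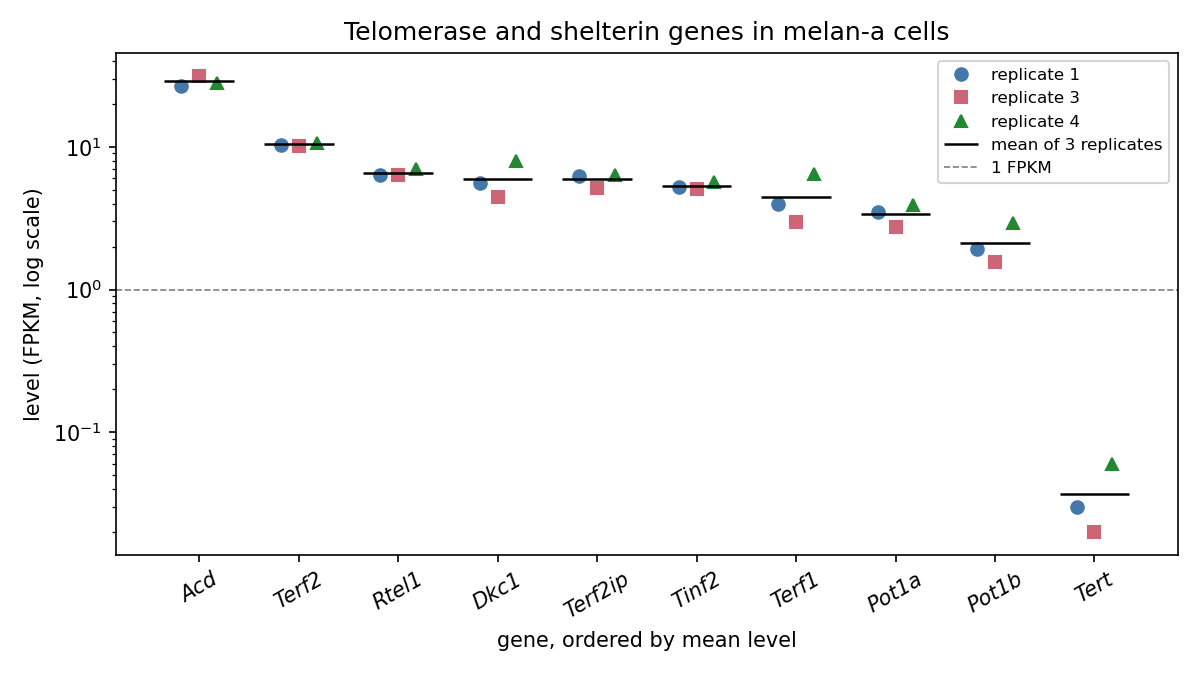
Level of each of the 10 genes in FPKM on a log axis, with 1 marker per library (replicates 1, 3 and 4), a bar at the mean of the 3 libraries and a dashed line at 1 FPKM. *Acd* lies above the other genes at 26.83 to 31.44 FPKM, and *Tert* is the only gene under the dashed line, at 0.02 to 0.06 FPKM.

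*Tert* encodes the catalytic subunit of telomerase. In mm9 it spans chr13:73764449-73786489 (plus strand), with 3426 bases of joined exons. Replicates 1, 3 and 4 gave 0.03, 0.02 and 0.06 FPKM, a mean of 0.037 ± 0.021 FPKM (SD, n = 3). All 10 genes, *Tert* included, were above 0 in every library, as were 60.1% of all genes, but *Tert* was far below 1 FPKM in each. Because the files round to 2 decimals, these values correspond to 5 to 6, 3 to 4 and 13 to 14 whole reads. With the nearest whole number taken for each library, 23 reads fell on *Tert* in all, a pooled level of 0.0401 FPKM with an exact 95% Poisson interval from 0.0254 to 0.0602 FPKM. Intervals of this kind cover counting error only. The limit of 3 reads stood at 0.0162, 0.0187 and 0.0131 FPKM in replicates 1, 3 and 4, so the value of replicate 3 was next to it. Replicate 4 was 3-fold above replicate 3, but the Poisson intervals of these libraries, 0.0335 to 0.103 and 0.00385 to 0.0546 FPKM, overlapped. Such an overlap is not a test. Whether *Tert* differed between the libraries was not tested, and at so few reads no difference is claimed. With the mean of the 3 libraries, 12965 genes were above *Tert*, 2538 were below it and above 0, and 7135 were at 0 in all libraries. *Parvg* and *Klhl13* had exactly the same 3 values as *Tert*, and no other gene did, which at so few reads describes no more than a level.

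A promoter window of *Tert*, the least expressed gene, is shown beside one of *Acd*, the most expressed. Each holds 300 bases, from 250 before to 50 after a RefSeq start (build GRCm38.p6), written 5′ to 3′ on the strand of the gene, and capitals mark GC boxes (GGGCGG on either strand), a motif bound by SP1-type factors. The *Tert* sequence is chr13:73626661-73626960 on the plus strand and the *Acd* sequence chr8:105701179-105701478 on the minus strand.
Tert: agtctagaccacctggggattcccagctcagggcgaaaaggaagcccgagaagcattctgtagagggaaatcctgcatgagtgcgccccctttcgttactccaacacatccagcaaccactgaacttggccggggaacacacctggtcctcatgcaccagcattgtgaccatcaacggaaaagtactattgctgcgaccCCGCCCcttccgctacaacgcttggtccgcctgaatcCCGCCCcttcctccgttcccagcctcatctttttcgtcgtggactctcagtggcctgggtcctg
Acd: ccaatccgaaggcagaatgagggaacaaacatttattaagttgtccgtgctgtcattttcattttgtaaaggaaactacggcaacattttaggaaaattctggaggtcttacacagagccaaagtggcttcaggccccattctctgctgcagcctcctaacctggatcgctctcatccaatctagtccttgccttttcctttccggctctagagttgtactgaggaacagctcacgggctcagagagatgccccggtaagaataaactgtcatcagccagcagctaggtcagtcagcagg
The *Tert* window holds 2 GC boxes and the *Acd* window none. Judged from the coordinates of *Terf2* and *Terf2ip* in both builds, the *Acd* window appears to lie wholly before the start of its mm9 gene model. Its lack of a GC box, also in the count that follows, therefore describes the RefSeq start and not the gene model that gave its level. Of the 9 genes with a promoter entry, 6 hold at least 1 GC box, against 35.7% of all 32851 promoters of this length. The E-box CACGTG, a palindrome bound by MYC and MITF among others, was in none of the 9 and in 7.15% of all promoters. *Terf1* had no entry. The 2 motifs do not overlap, and these matches describe the letters of the windows only.

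*Dkc1*, which encodes dyskerin and lies on chromosome X (chrX:72341193-72355116, plus strand), was read at 5.57, 4.42 and 7.97 FPKM in replicates 1, 3 and 4. Its mean was 5.99 ± 1.81 FPKM (SD, n = 3), with replicate 4 above the others. In the same libraries *Dkc1* was 185.7, 221 and 132.8-fold above *Tert* per length. The mean log2 ratio was 7.05 ± 0.2 (SD, n = 3) with a pseudocount of 0.01 FPKM added to both genes. This pseudocount is not small beside *Tert*, so the log2 ratio and its SD are smaller than those of the printed folds. The size of this ratio rests on the few reads of *Tert*, while its direction held in 3 of 3 libraries. At its 3' end 45 exon bases of *Dkc1* overlap *Mpp1* on the opposite strand, 1.09% of its exon bases. *SNORA36*, within *Dkc1* on the same strand, and a U6 gene within *Pot1b* on the opposite strand share no exon bases with them and were not analysed here.

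The partners of dyskerin were read as well. Of the 11 measured genes of telomerase assembly and trafficking, all were at or above 1 FPKM in all 3 libraries, against 44.1% of all genes, with a median of 7.53 FPKM. *Nop10* and *Nhp2*, which form the core particle with dyskerin, had the highest levels of this list, 42.6 ± 0.77 and 35.7 ± 5 FPKM (SD, n = 3). *Shq1*, a chaperone of dyskerin, was lowest at 2.32 ± 0.13 FPKM. *Wrap53*, which directs telomerase to Cajal bodies, was at 7.76, 7.98 and 6.84 FPKM in replicates 1, 3 and 4. *Terc*, the RNA component, was not analysed here.

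Among the shelterin genes, *Acd* was the highest. It encodes TPP1, which brings telomerase to the chromosome end, and lies on chromosome 8 (chr8:108222058-108224995, minus strand). Replicates 1, 3 and 4 gave 26.83, 31.44 and 28.16 FPKM, a mean of 28.8 ± 2.37 FPKM (SD, n = 3) at rank 2358 of 22698. No library of any other member reached the lowest of these values. The genes with the most similar values over the 3 libraries were *Sharpin* and *Tbl1x*, whose largest log2 differences from *Acd* were 0.04 and 0.05. *Acd* is the 1 member of the 9 that was highest in replicate 3. Its first exon lies 58 bases from *Pard6a*, which is transcribed the other way and was at 4.76 to 5.68 FPKM. At its other end 21 exon bases overlap *Rltpr* on the opposite strand, a gene at 0.04 to 0.09 FPKM.

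The double-strand binding proteins differed in level. *Terf2*, which encodes TRF2 and protects ends from being joined (chr8:109593300-109620447, minus strand), was at 10.33, 10.21 and 10.7 FPKM in replicates 1, 3 and 4, a mean of 10.4 ± 0.26 FPKM (SD, n = 3). *Terf1*, which encodes TRF1 (chr1:15795739-15833551, plus strand), was at 3.97, 2.96 and 6.5 FPKM, a mean of 4.48 ± 1.82 FPKM (SD, n = 3). *Terf2* was nearly the same in every library and *Terf1* was not. Within a library *Terf2* was above *Terf1* by 2.6, 3.45 and 1.65-fold, with no overlap between the values of the genes (mean log2 ratio 1.29 ± 0.54, SD, n = 3). With the longest annotated transcript as gene length this mean was 2.04. With 3 libraries an exact sign-flip permutation test (two-sided) cannot go below p = 0.25, so ratios are given by library and by spread.

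*Tinf2* and *Terf2ip* were at intermediate levels. *Terf2ip*, which encodes RAP1, the partner of TRF2 (chr8:114535259-114544428, plus strand), was at 6.27, 5.14 and 6.31 FPKM, a mean of 5.91 ± 0.66 FPKM (SD, n = 3). Its ratio to *Terf2* was 0.61, 0.5 and 0.59, below 1 in 3 of 3 libraries (mean log2 ratio -0.82 ± 0.15, SD, n = 3), and the mean was -1.61 with the longest transcript. Its neighbour *Kars*, 35 bases away on the opposite strand, was at 78.28 to 89.58 FPKM, and *Gm6793*, which lies within *Terf2ip* on the opposite strand without shared exon bases, at 0.01 to 0.08 FPKM. *Tinf2*, which encodes TIN2, the hub that links TRF1, TRF2 and TPP1 (chr14:56295455-56300654, minus strand), was at 5.22, 5.1 and 5.71 FPKM, a mean of 5.34 ± 0.32 FPKM (SD, n = 3). *Acd* was above *Tinf2* by 5.14, 6.16 and 4.93-fold (mean log2 ratio 2.43 ± 0.17, SD, n = 3). The end of *Tinf2* shares 232 exon bases, 7.84% of its own, with *Gmpr2* on the opposite strand, a gene at 15.46 to 18.12 FPKM. The strand setting of the counting is not given in the sources used here, so how such reads were assigned was not tested.

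*Pot1a* and *Pot1b*, which encode the single-strand binding proteins, were the lowest of the shelterin genes when levels were set on the joined exons. *Pot1a* (chr6:25693737-25759246, minus strand) was at 3.51, 2.73 and 3.94 FPKM in replicates 1, 3 and 4, a mean of 3.39 ± 0.61 FPKM (SD, n = 3). *Pot1b* (chr17:55791323-55851926, minus strand) was at 1.91, 1.56 and 2.91 FPKM, a mean of 2.13 ± 0.7 FPKM (SD, n = 3). The ranges of the genes overlapped across libraries, but within each library *Pot1b* was below *Pot1a*, at 0.54, 0.57 and 0.74 of its level (mean log2 ratio -0.7 ± 0.24, SD, n = 3). With the longest annotated transcript as gene length *Pot1a* came to 9 FPKM, above *Tinf2*, *Terf2ip* and *Terf1*, and the mean log2 ratio to -2.11. The first 90 coding bases of both are shown, from the mm9 transcripts, because reads are told apart only where such copies differ. Capitals mark the 18 positions at which they differ.
Pot1a: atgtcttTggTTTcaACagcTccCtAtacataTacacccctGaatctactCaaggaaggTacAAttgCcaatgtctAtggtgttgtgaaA
Pot1b: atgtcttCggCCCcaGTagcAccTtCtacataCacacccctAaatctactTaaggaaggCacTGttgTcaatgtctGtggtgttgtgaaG
Both coding sequences are 1923 bases long, 78.6% of aligned positions are identical, and the longest shared run is 41 bases. The coding sequences of *Terf1* and *Terf2* were 47.1% identical, with no shared run over 17 bases. The length of the reads was not given in the sources used here, so reads that would match both *Pot1* genes were not counted.

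Summed over its 7 genes, shelterin came to 58.0, 59.1 and 64.2 FPKM in replicates 1, 3 and 4. *Acd* made up 46.2%, 53.2% and 43.8% of the sum and *Terf2* 17.8%, 17.3% and 16.7%. *Terf2ip* held 9.77 ± 1.06%, *Tinf2* 8.84 ± 0.19%, *Terf1* 7.32 ± 2.59%, and *Pot1a* with *Pot1b* together 9.09 ± 1.72% (SD, n = 3). *Acd* and *Terf2* were the first and second in each library. These shares rest on the joined exons. With the longest transcripts, an alternative added after the data were seen, *Pot1a* with *Pot1b* held 14.2 ± 2.29%, *Acd* 39.8 ± 4.38% and *Terf2* 23.1 ± 0.73% (SD, n = 3). Transcript levels say nothing of protein levels or of the make-up of the complex.

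**Figure D2:**
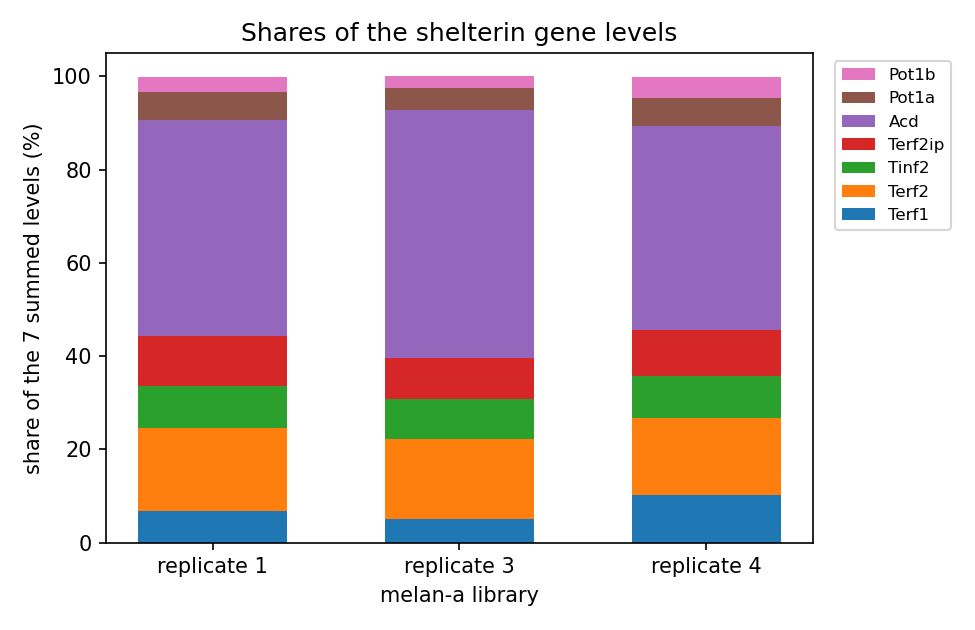
Share of each of the 7 shelterin genes in their summed FPKM, in percent, as 1 stacked bar per library. The *Acd* part spans 43.8% to 53.2% and the *Terf1* part 5% to 10.1%, with the largest *Terf1* part in replicate 4.

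**Figure D3:**
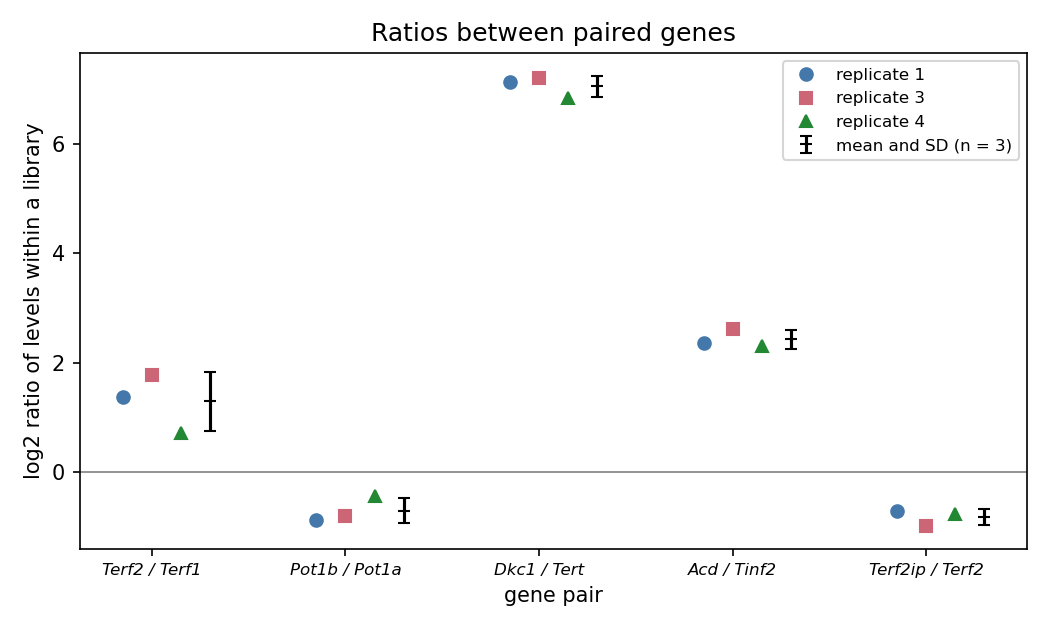
Log2 ratio of the levels of 5 gene pairs within a library, with 1 marker per library and the mean with SD over the 3 libraries. Every pair stays on 1 side of 0 in all libraries, and the ratio of *Terf2* to *Terf1* has the widest spread of the 5, from 0.72 to 1.78. The ratios hold a pseudocount of 0.01 and are not corrected for GC content, and with that correction another pair has the widest spread.

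*Rtel1*, which encodes a helicase that unwinds telomere loops (chr2:181054444-181091321, plus strand), was at 6.37, 6.36 and 7.02 FPKM, a mean of 6.58 ± 0.38 FPKM (SD, n = 3). In the order of mean levels it stood after *Acd* and *Terf2* and was followed by *Dkc1*, *Terf2ip*, *Tinf2*, *Terf1*, *Pot1a*, *Pot1b* and *Tert*. Neighbours in this order were called separated where their ratio had the same sign in all 3 libraries and a mean above its SD, which held for 6 of 9 neighbouring pairs. *Rtel1* and *Dkc1*, *Dkc1* and *Terf2ip*, and *Tinf2* and *Terf1* were not separated. Among the separated pairs, *Terf2ip* and *Tinf2* (log2 ratio 0.14 ± 0.13) and *Terf1* and *Pot1a* (0.34 ± 0.33) passed by a small margin. The order also rests on gene length. When the longest annotated transcript was used in place of the joined exons, *Pot1a*, whose 11 annotated transcripts join to 8680 bases, rose from place 8 to place 4, at 9 ± 1.63 FPKM. *Acd*, *Terf2* and *Rtel1* kept the first places, and *Pot1b* and *Tert* the last.

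The spread between libraries was uneven over the genes and moved in part with GC content. The SD of log2 levels was 0.04 for *Terf2*, 0.08 for *Rtel1* and 0.09 for *Tinf2*, but 0.57 for *Terf1*, 0.46 for *Pot1b* and 0.43 for *Dkc1*. Its median over the 9 genes was 0.17, and over all genes of at least 1 FPKM it was 0.16. The exons of *Terf1*, *Pot1b* and *Dkc1* had GC contents of 42.7%, 44.8% and 43.8%, those of *Terf2*, *Rtel1* and *Tinf2* 49.9%, 51.4% and 51.6%. The order was not strict. *Pot1a*, the lowest in GC content at 39.8%, had an SD of 0.27, *Terf2ip*, at 48%, 0.17 and *Acd*, the highest at 57.6%, 0.12. Of the 9 genes, 8 were highest in replicate 4 and lowest in replicate 3, against 37.2% of all genes of at least 1 FPKM. The share was 57% among such genes with a GC content from 39% to 52%. This range was drawn around these 8 genes and leaves out *Acd*, so all members within it show the pattern by choice of the range. *Acd*, with 57.6%, was the exception.

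**Figure D4:**
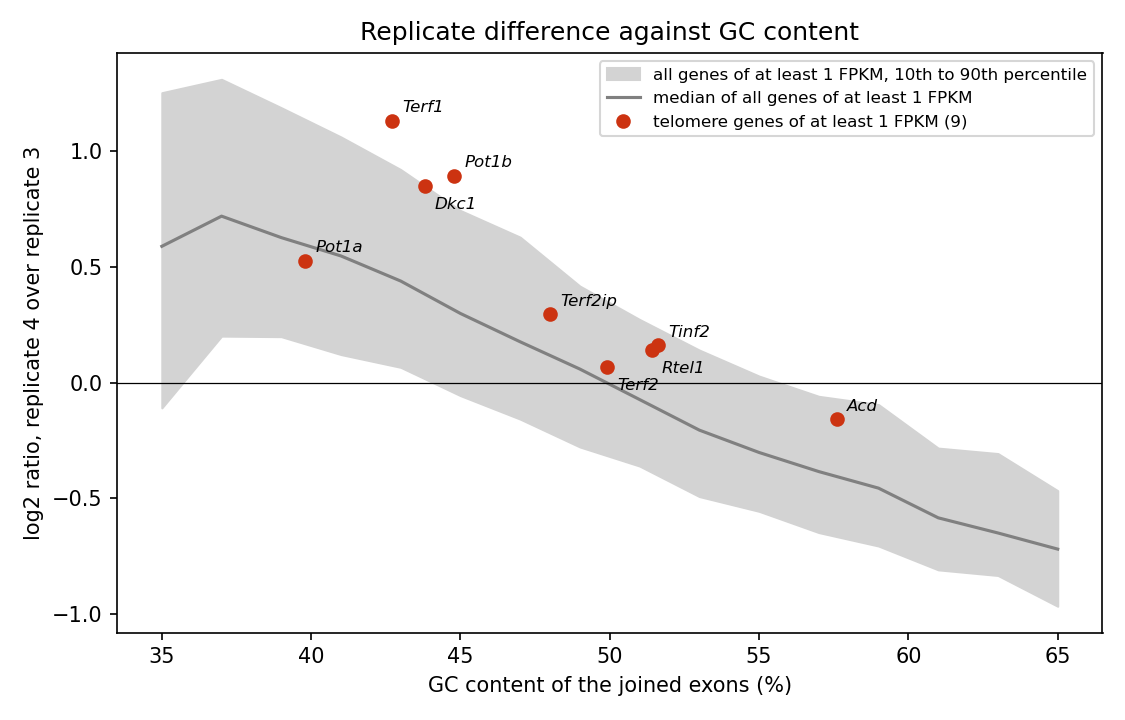
Log2 ratio of replicate 4 to replicate 3 against the GC content of the joined exons in percent, for the 9 genes of at least 1 FPKM (points) and for all such genes (line, median per range of 2 percentage points, and grey band, 10th to 90th percentile). The ratio of all genes falls with GC content, and *Terf1* at 1.13 and *Pot1b* at 0.9 lie above the band.

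Genes of the same GC content were set beside each member. The log2 ratio of replicate 4 to replicate 3 was 1.13 for *Terf1* and 0.85 for *Dkc1*, against a median of 0.44 for 794 genes with a GC content of 42% to 44%. For *Pot1b* it was 0.9, against a median of 0.3 for 1008 genes with 44% to 46%. *Terf1* and *Pot1b* were above the 90th percentile of their range, and 8 of 9 genes were above its median. *Pot1a*, at 0.53 against 0.63, was below. After a smooth fit on GC content was removed from each library, the ratio was 0.69 for *Terf1*, 0.58 for *Pot1b*, 0.47 for *Dkc1* and -0.074 for *Pot1a*. The median SD of log2 levels then was 0.14 over the 9 genes and 0.11 over all genes of at least 1 FPKM. Highest in replicate 4 and lowest in replicate 3 were then 6 of the 9, against 30.5% of all such genes. With the correction 7 of 9 neighbouring pairs were separated: *Rtel1* and *Dkc1* and *Tinf2* and *Terf1* were added, and *Terf1* and *Pot1a* were lost. The SD of the log2 ratio then was 0.53 for *Dkc1* to *Tert*, 0.35 for *Pot1b* to *Pot1a* and 0.32 for *Terf2* to *Terf1*. For *Terf2ip* to *Terf2* it was 0.11 and for *Acd* to *Tinf2* 0.09, and each of these pairs kept its sign in every library. Depth, GC dependence and the culture change together between the 3 libraries and cannot be told apart.

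Further telomere genes were read from 5 lists, which held 39 genes, of which 38 were measured. Outside the meiotic list all 35 measured genes were at or above 1 FPKM in all libraries, against 44.1% of all genes. The 3 genes of the CST complex, which caps the overhang and ends telomerase action, had a median of 23.4 FPKM. *Ctc1*, its large subunit, was at 31.16, 34.1 and 26.49 FPKM, next to *Acd*, and *Stn1* was its lowest at 8.53 ± 0.28 FPKM (SD, n = 3). The 14 shelterin partners and processing genes ran from 2.51 ± 0.8 FPKM for the helicase gene *Blm* to 24.2 ± 4.45 FPKM for *Ercc1* (SD, n = 3), around a median of 7.04 FPKM.

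The 7 genes of telomere chromatin and recombination had a median of 6.79 FPKM. *Daxx*, which encodes a histone H3.3 chaperone, was their highest at 8.42 ± 0.69 FPKM, and *Zbtb48*, a telomere-binding zinc finger gene, the lowest at 2.95 ± 0.61 FPKM (SD, n = 3). *Atrx*, the partner of *Daxx* whose loss is known from cells that maintain telomeres by recombination, was at 5.04, 3 and 9.36 FPKM in replicates 1, 3 and 4. Its log2 ratio of replicate 4 to replicate 3 was 1.64, above the 90th percentile of 1.19 for genes of 38% to 40% GC (its own is 38.7%), and 0.99 after the GC correction. *Atrx*, like *Nhp2* and *Wrap53*, was named after its values were seen.

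The 3 genes that tie telomeres to the nuclear envelope in meiosis were the only measured genes of the 5 lists under 1 FPKM. *Terb1* was at 0.02, 0.02 and 0.01 FPKM, *Majin* at 0, 0.03 and 0, and *Terb2* at 0 in every library. In reads these were 11 for *Terb1* (pooled 0.0175 FPKM, exact 95% Poisson interval 0.00874 to 0.0313), 2 for *Majin* and 0 for *Terb2*. The two-sided exact 95% interval of *Terb2* ended at 3.69 reads. The interval of *Terb1* overlapped that of *Tert*. Of the markers of other cell types, *Krt5* had 8 reads (0.0218 FPKM, 0.00942 to 0.043) and *Pdgfra* 90 (0.0798 FPKM, 0.0642 to 0.0981). These markers were picked after their values were seen. The interval of *Tert* overlapped that of *Krt5* and lay below that of *Pdgfra*. Other markers of the same lists lay on either side: *Krt10* was at 0.49 FPKM on average and *Dcn* at 0.0133.

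**Figure D5:**
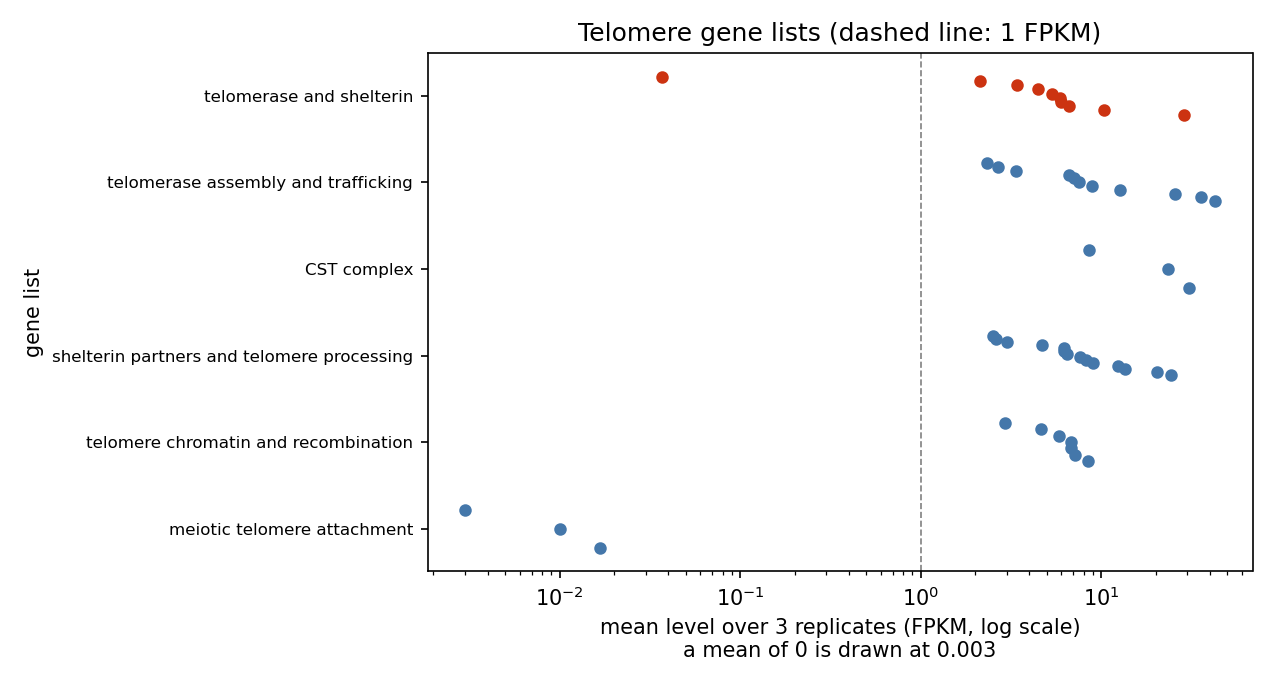
Mean level over 3 libraries in FPKM, on a log axis, of each gene in the telomerase and shelterin set (red) and in 5 further telomere lists (blue), with 1 point per gene and a dashed line at 1 FPKM. *Tert* and the 3 meiotic genes lie left of the line, the meiotic gene with a mean of 0 is drawn at 0.003, and every other gene lies between 2.13 and 42.6 FPKM.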

How the data were processed

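RNA-seq libraries of melan-a cells were made with a stranded mRNA kit that selects polyadenylated RNA. The authors trimmed 10 bases, aligned reads to mm9 with STAR 2.3.0e, removed rRNA reads and counted on Ensembl release 67 with HTSeq 0.5.3p3. The deposited values are FPKM with 2 decimals, for which library sizes had been scaled by TMM. The gene length they used is not given in the sources used here. For 11 short genes with several transcripts, reads were nearer to whole numbers with the joined exons (mean distance 0.165, 0.112 and 0.126 reads in replicates 1, 3 and 4) than with the longest transcript (0.215, 0.254 and 0.26). The genes with 1 transcript, from which library sizes were estimated, lay nearer still, at 0.043, 0.049 and 0.065 reads. The 11 genes were also picked by their reads on the joined exons, so this check does not settle the gene length. Ensembl release 65 on mm9 gave symbols, lengths and GC contents. It lacks 374 of the genes.

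Library sizes were estimated from 102 to 119 genes of at most 500 bases with 1 transcript, as the size nearest to whole reads. Read numbers rest on these sizes and on the joined exons. The 9 genes of at least 1 FPKM had 232 to 3276 estimated reads per library. Log2 values used a pseudocount of 0.01. GC content was corrected by a lowess fit per library (fraction 0.2). Both steps were tried on simulated data, made with the same annotated gene lengths and linear trends on GC content. Such data cannot show whether those lengths are right, nor tell GC dependence apart from the culture. No count model was used. Ratios were not tested, since the exact sign-flip test over 3 libraries cannot go below p = 0.25. All members and the highest and lowest gene of each list are named, with the genes nearest in level to *Tert* and *Acd*. Neighbours within 1000 bases are named too. *Nhp2*, *Wrap53*, *Atrx*, *Krt5* and *Pdgfra* were given by value after their values were seen, and *Majin* was read under its older name 1700123I01Rik. The members and lists were chosen with earlier results of these data known. The software was matplotlib 3.10.9, statsmodels 0.14.6, scipy 1.17.1, pandas 2.3.3 and numpy 2.4.6 under Python 3.11.15.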

Additional observations from a re-analysis of the deposited data

How the results depend on the processing

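No paired analysis was possible because the replicates belong to 1 group. Of 92 values for counts, ratios and the median spread under the alternatives, 83 kept to within the spread between libraries or 1.5 times the count, those without 1 replicate included. A part of the 83 could hardly change. The GC correction removes a trend around the mean of each gene, so mean ratios stay nearly the same by construction. Lists in which every measured gene passed 1 FPKM cannot lose a gene without 1 replicate, at 0.5 FPKM or when values are scaled up. The count of 83 is therefore no measure of stability. With the longest transcript the log2 ratio was 2.06 for *Acd* to *Tinf2*, 7.61 for *Dkc1* to *Tert*, -2.11 for *Pot1b* to *Pot1a*, 2.04 for *Terf2* to *Terf1* and -1.61 for *Terf2ip* to *Terf2*, as the length itself changes. For *Dkc1* to *Tert* it was 7.29 with rescaled libraries. Rescaling leaves the ratio itself unchanged, and the pseudocount of 0.01 only weighs less against the larger values. It was 5.45 with a pseudocount of 0.1 and 2.72 with 1, since the pseudocount then exceeds *Tert*, and the main value of 7.05 is already lowered by the pseudocount of 0.01. With a pseudocount of 1 it was 2.23 for *Acd* to *Tinf2*. Of 208 values of single genes and shelterin shares, 153 stayed within the spread between libraries, or within counting error for the replicate ratios, and 53 moved further, 17 of them with rescaled libraries and 17 with the longest transcript, where *Terf2* came to 17.9 and *Pot1a* to 9 FPKM. The other 2 changed sign, the log2 ratio of replicate 4 to replicate 3 under the GC correction, to 0.25 for *Acd* and to -0.074 for *Pot1a*. Rescaled libraries change the unit of every level. The mean level of each gene moved with it, as for *Acd* from 28.8 to 76.3, while the percentiles stayed within the spread. Depth limits *Tert* and the meiotic genes.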
